A study of Mus musculus with 8 samples.

Results

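The genes described are 9 that encode secreted signals for neutrophils and other myeloid cells: the CXC chemokine genes Cxcl1, Cxcl2, Cxcl3, Cxcl5 and Ppbp, the CC chemokine genes Ccl3 and Ccl4, and the colony-stimulating factor genes Csf3 and Csf2. They were taken by symbol, and all 9 were among the 16902 genes of each of the 2 tables of normalised expression. RNA was sequenced from the epidermis of CD1 mouse back skin, separated from the dermis with dispase, in 8 libraries. Without treatment, Ovol1 +/- control mice were set against mice labelled Ovol1 -/-. Under imiquimod (IMQ) the controls were Ovol1 +/+ and the others again Ovol1 -/- by label. Ovol1 encodes a zinc-finger transcription factor of epithelia, and IMQ is a Toll-like receptor agonist that inflames mouse skin in a psoriasis-like way. Each group held 1 female and 1 male library, so the controls carried a different genotype in the 2 treatments, and every SD and test rests on 1 animal of each sex per group. No age, dose or duration was given in the labels used here.

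CXCL1, CXCL2, CXCL3 and CXCL5 draw neutrophils through the receptor CXCR2, and keratinocytes can make them when interleukin-17, interleukin-1 or tumour necrosis factor reaches them. CCL3 and CCL4 act on monocytes, T cells and other leukocytes. Granulocyte colony-stimulating factor, the product of Csf3, drives the output of neutrophils from bone marrow, and the product of Csf2, granulocyte-macrophage colony-stimulating factor, acts on neutrophils, macrophages and dendritic cells. Many of these messages share a kappaB site near the start of transcription, through which NF-kappaB acts, and AU-rich words in the 3′ UTR, through which the message is removed quickly.

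The libraries held 28.6 to 43.1 M reads. Ovol1 itself, at 14582 to 16629 normalised counts in untreated controls and 26601 to 27433 in untreated labelled knockouts, and at 7635 to 9556 and 13076 to 13457 under IMQ, was not lower in the libraries labelled -/-. The tables hold no value per exon, so this does not check the labels, and these libraries are called labelled knockouts. The 10 keratinocyte marker genes were all read, and summed to 19715 to 33088 CPM (counts scaled to library size) per library. Less RNA per cell and fewer cells of a type cannot be told apart in such bulk samples.

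The 5 CXC genes lay on the plus strand of mouse chromosome 5 (mm10) within 146.579 kb, in the order Cxcl5, Ppbp, Cxcl3, Cxcl1, Cxcl2, with the platelet chemokine gene Pf4 between Ppbp and Cxcl3. Cxcl1 spanned 90891241 to 90893115, Cxcl2 90903871 to 90905938 and Cxcl3 90786103 to 90789600. Ccl3 and Ccl4 were neighbours on chromosome 11, within 16.84 kb. Csf3 (98701263 to 98703629) and Csf2 (54247271 to 54249667) lay elsewhere on chromosome 11. Promoter windows of 250 bases before to 50 after the RefSeq start (GRCm38) were at hand for 6 of the 9 genes. The 3 below are shown because Cxcl1, Cxcl2 and Cxcl3 carry the same 10 letters, in capitals, upstream of their starts. Each line is 75 bases of the plus strand, 5′ to 3′, at chr5:90891149-90891223 for Cxcl1, chr5:90903777-90903851 for Cxcl2 and chr5:90786003-90786077 for Cxcl3.

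Cxcl1: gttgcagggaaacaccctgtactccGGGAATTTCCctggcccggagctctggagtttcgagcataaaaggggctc
Cxcl2: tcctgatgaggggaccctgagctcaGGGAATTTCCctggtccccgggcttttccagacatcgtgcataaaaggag
Cxcl3: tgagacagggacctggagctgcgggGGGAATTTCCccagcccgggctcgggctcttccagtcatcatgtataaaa

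The first base of the GGGAATTTCC word lay 71 bp before the RefSeq start in Cxcl1, 97 bp in Cxcl2 and 73 bp in Cxcl3. The word was read from the Cxcl1 window itself, so the match in Cxcl1 was fixed in advance. It was searched on both strands and was in 3 of the 6 member windows, against 29 of 32851 windows of the same length (0.0883%). The wider NF-kappaB consensus, which overlaps this word, was in the same 3 windows and in 4.51% of all windows. The AP-1 word TGANTCA was in the window of Ppbp and in 7.81% of all windows. The C/EBP word TTGCNNAA was in that of Csf2 and in 10.8% of all windows. CCGTTA, a word bound by Ovo-family proteins, was in none of the 6 and in 2.76% of all windows. A match is a string of letters and not a measured site. Of the 16 genes tested that had GGGAATTTCC in a window, members included, 8 had a positive labelled knockout minus control value under IMQ, with a median of 0.07 on the log2 scale, and 0 were called.

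The 3′ UTRs differed in the 5-letter word ATTTA, the core of AU-rich elements. Windows of 30 bases, 5′ to 3′ on the gene's strand, are shown for the 3 genes with the most words, with the words in capitals.

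Csf2: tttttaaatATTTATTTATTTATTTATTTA
Cxcl2: tATTTATTTAtctatgtATTTATTTATTTA
Cxcl1: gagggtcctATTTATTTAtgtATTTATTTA

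Csf2 held 9 ATTTA words in a 3′ UTR of 317 bases, or 28.4 per kb, and 0.0368% of 13590 genes with a 3′ UTR of at least 50 bases were at or above that density, Csf2 included. Cxcl2 held 11 words (14.99 per kb), Cxcl1 7 (11.8 per kb) and Csf3 6 (8.97 per kb). Ccl3, Cxcl3 and Cxcl5 held 5 each, at 12.2, 7.75 and 4.50 per kb. Ccl4 held 2 and Ppbp 1, against a median of 1 word and 1.25 per kb over those genes. Apart from Ppbp, whose density 44.0% of genes reached, the members lay in the upper 8.60% by density.

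Cxcl1 and Cxcl2 were the most abundant members, and both stood far higher in the 4 IMQ libraries than in the 4 untreated ones. In untreated epidermis Cxcl1 was at 180 (female) and 120.2 (male) normalised counts in control mice and at 343 and 191 in labelled knockouts. Under IMQ the values were 3241 and 3812 in control mice and 8000.4 and 6657 in labelled knockouts, a mean ± SD of 3527 ± 404 and 7329 ± 950.2 (n = 2 each). Both labelled knockouts lay above both controls in each treatment. Cxcl2 was at 217 and 125 in untreated controls, and at 239 and 321 in untreated labelled knockouts. Under IMQ it reached 2482 and 1609 in control mice and 7983 and 4255 in labelled knockouts. The Cxcl2 groups too were apart in both treatments, but the untreated female pair differed little (239 against 217).

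**Figure D1:**
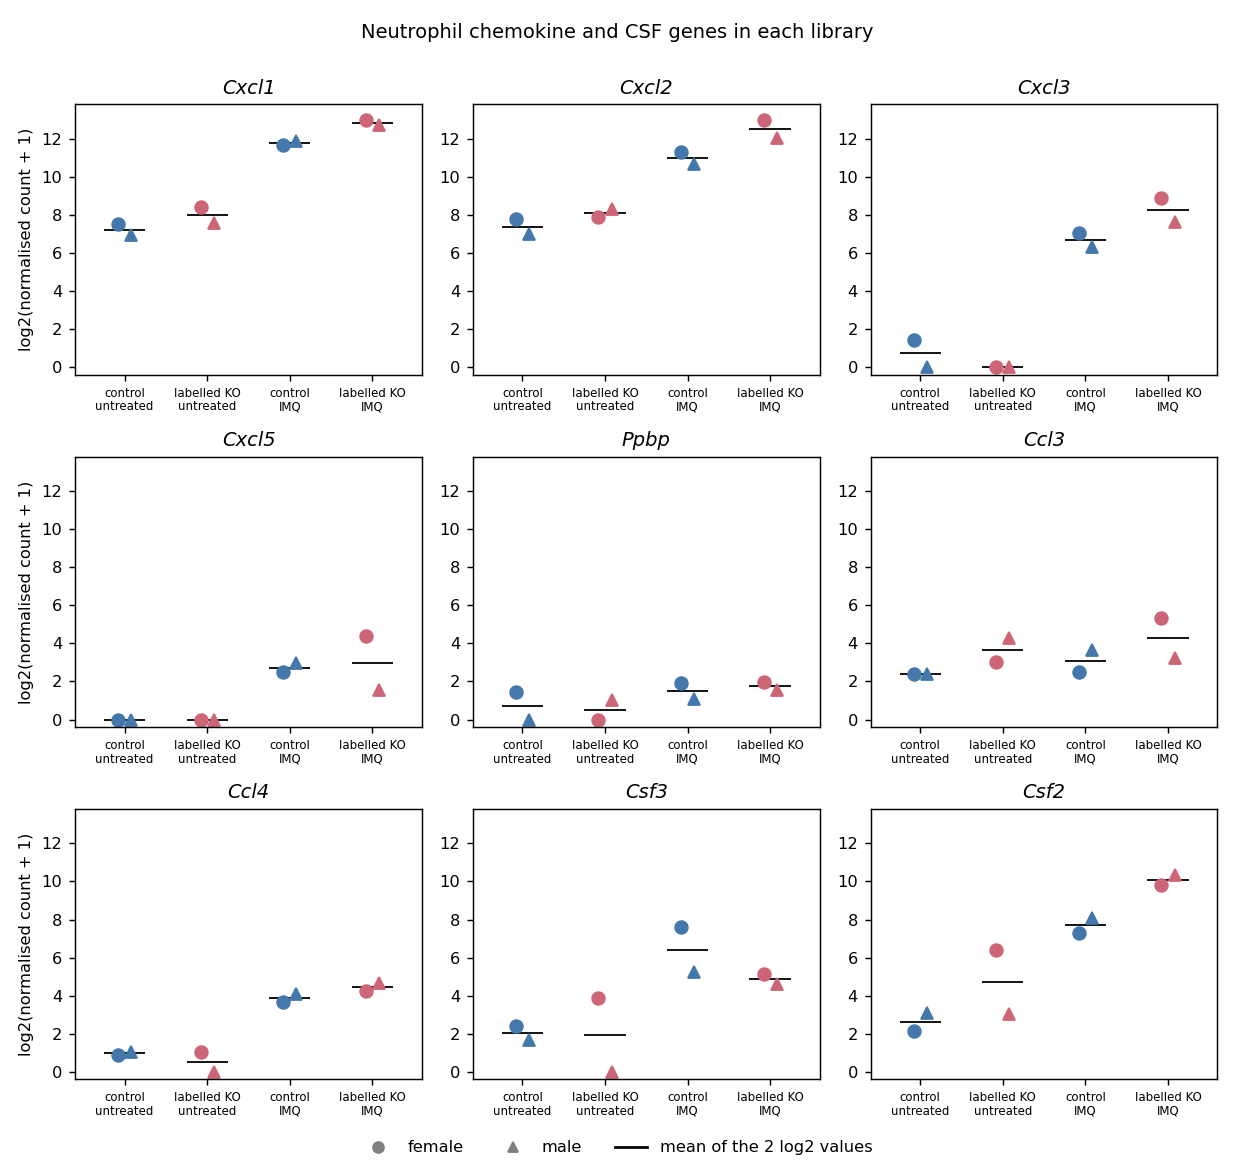
Each panel plots log2 of the normalised count plus 1 (vertical axis) of 1 gene in the 4 groups (horizontal axis), with circles for female and triangles for male libraries, blue for controls, red for labelled knockouts, and a line at the mean of the 2 log2 values. The tables of untreated and IMQ libraries were scaled separately. Cxcl1 and Cxcl2 are the highest members in every group, and Ppbp is the lowest under IMQ.

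Cxcl3, which shares the 10-letter word with them, was nearly silent at rest. It was at 1.73 normalised counts in the untreated female control, which is 2 reads, and at 0 in the other 3 untreated libraries. Under IMQ it was at 129 and 79.9 in control mice and 464 and 196 in labelled knockouts. The IMQ groups did not overlap, though the male labelled knockout lay closer to the female control than to the female labelled knockout. Cxcl5, whose product is the chemokine LIX, had 0 reads in all 4 untreated libraries. Its IMQ values were 4.59 and 6.85 in control mice and 19.9 and 1.90 in labelled knockouts, so the 2 labelled knockouts enclosed the controls. Ppbp, which is best known from platelets, was at 0 to 1.73 untreated and at 1.14 to 2.98 under IMQ. Cxcl5 and Ppbp fell under the filter of a mean of 10 in either table and were not tested, which left 7 members.

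The CC chemokine genes stayed low. Ccl3 was at 4.32 and 4.29 in untreated controls and 7.25 and 18.5 in untreated labelled knockouts. Under IMQ it was at 4.59 and 11.4 in control mice and at 38.8 and 8.56 in labelled knockouts. The untreated groups did not overlap, whereas the IMQ groups did, with 1 library, the female labelled knockout, standing high. Its neighbour Ccl4 was at 0 to 1.07 in the 4 untreated libraries. Under IMQ Ccl4 was at 11.9 and 16.0 in control mice and 17.9 and 24.7 in labelled knockouts, groups that lay apart by less than 2 counts.

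The colony-stimulating factor genes went different ways. Csf2 was at 3.46 and 7.52 in untreated controls and at 83.9 and 7.21 in untreated labelled knockouts, where only the female library was high. Under IMQ Csf2 was at 155 and 273 in control mice against 884 and 1291 in labelled knockouts (mean ± SD 214 ± 83.3 and 1088 ± 288, n = 2 each). Here both labelled knockouts exceeded both controls. Csf3 was at 4.32 and 2.15 in untreated controls and at 13.5 and 0 in untreated labelled knockouts. Under IMQ it was at 195 and 36.5 in control mice and at 34.8 and 23.8 in labelled knockouts. The IMQ groups of Csf3 were apart, in the opposite direction to Csf2, but the male control and female labelled knockout differed by 36.5 against 34.8, and 1 library, the female control, held the high value.

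How labelled loss of Ovol1 altered these genes was tested with limma on log2 of the normalised count plus 1, over 14614 genes, with Benjamini-Hochberg adjustment and a threshold of 0.05. No member passed it in either treatment, against a background of 0% of all genes untreated and 0.438% (64 genes) under IMQ. At an unadjusted p under 0.05, 652 genes stood out untreated and 3208 under IMQ. The 64 calls fell to 0 with plain moderation or with each table fitted alone.

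Under IMQ Cxcl2 and Cxcl1 had the smallest p-values of the members, followed by Csf2 and Cxcl3. The log2 fold change of labelled knockout over control was 1.54 for Cxcl2 (SE 0.38, 95% interval 0.65 to 2.44, limma adjusted p = 0.0996) and 1.05 for Cxcl1 (SE 0.30, interval 0.36 to 1.75, adjusted p = 0.123). A smaller p was found for 4.31% and 6.95% of all genes in turn. Cxcl3 had 1.56 (SE 0.65, interval 0.04 to 3.07, adjusted p = 0.219). Csf2 had the largest log2 fold change of the members, 2.37, but also a wide error (SE 0.96, interval 0.13 to 4.61, adjusted p = 0.211). These 4 of the 7 tested members had an unadjusted p under 0.05, as 22.0% of all genes did, and each had a positive value in both sexes. With DESeq2 on recovered reads (the normalised counts turned back into whole reads), 3 of them passed, Cxcl1 (adjusted p = 0.00563), Cxcl2 (7.43e-04) and Cxcl3 (0.0252), beside 1242 genes in all. edgeR's quasi-likelihood test gave 0.116, 0.0973 and 0.158.

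The other tested members were further from the threshold under IMQ. For Ccl3 it was 1.23 (SE 0.82; adjusted p from limma 0.407), with 2.83 for females and -0.38 for males. Ccl4 had 0.57 (SE 0.62, adjusted p = 0.621), with 0.55 and 0.60 in the pairs. Csf3 had -1.52 (SE 1.25, adjusted p = 0.504). Leaving out the female control, the library with the high Csf3 value, gave -0.33. Both labelled knockouts lay above both controls in 5 of the 7 tested members, where 26.6% of all genes did so, and below them in 1, Csf3, where 26.4% did. The median over the 7 members was 1.23, which is the Ccl3 value, against -0.01 over all genes. Ccl3 passed the filter on low values through the IMQ table alone, where its female labelled knockout stood high.

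In untreated epidermis Cxcl1 had a log2 fold change of 0.79 (SE 0.30, interval 0.10 to 1.49), and was the 1 member with an unadjusted p under 0.05 (0.0305), a level that 4.46% of all genes reached. It was 0.37 without the female labelled knockout and 0.51 without the male control. Cxcl2 stood at 0.75 (SE 0.38), but at 0.35 without the male control and 1.15 without the female control. Ccl3 stood at 1.26 (SE 0.82), but at 0.64 without the male labelled knockout. Csf2 stood at 2.10 (SE 0.96), but at 0.42 without the female labelled knockout. Cxcl3, Ccl4 and Csf3, at -0.72, -0.46 and -0.11, rested on 13 reads or fewer in every untreated library. The limma adjusted p was 1.00 for all 7. Cxcl1, Cxcl2 and Ccl3 were higher in both labelled knockouts, 3 of 7 members, where 17.4% of all genes were, and 0 members were lower in both, where 16.4% of all genes were. The members' median was 0.75, against 0.00 over all genes.

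**Figure D2:**
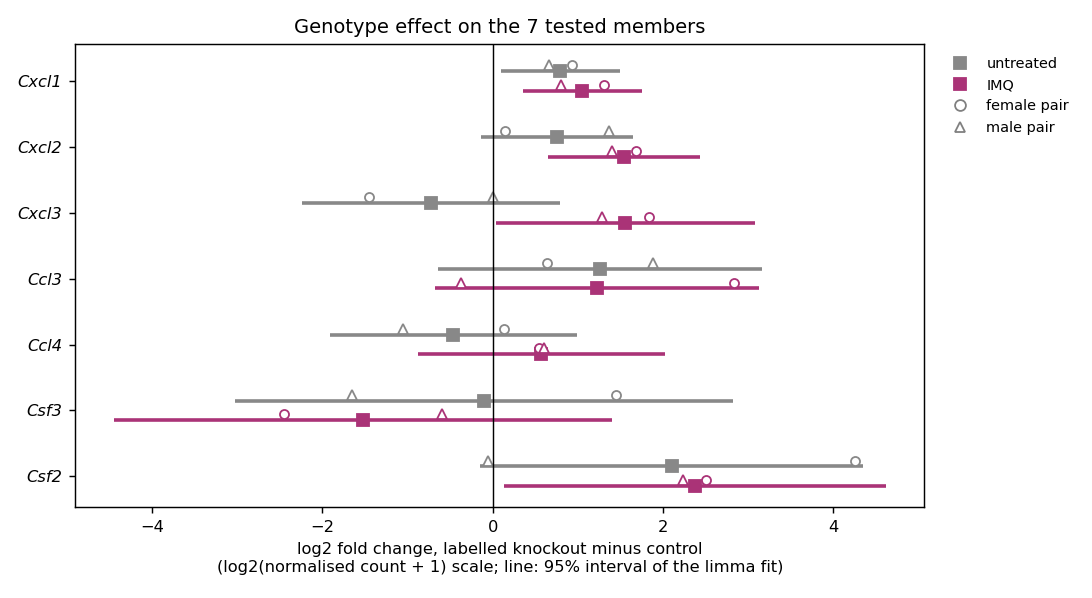
Squares give the limma log2 fold change of labelled knockout minus control (horizontal axis, log2(normalised count + 1) scale) for 7 genes (vertical axis), grey for untreated and purple for IMQ, with lines for the 95% interval. Open circles and triangles give the female and the male pair. Under IMQ the intervals of Cxcl1, Cxcl2, Cxcl3 and Csf2 lie above 0 before adjustment, and the error of Csf3 and Csf2 is several times that of Cxcl1.

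Whether the genotype effect differed between treatments was tested as the difference of both fold changes. The control genotype differed too, Ovol1 +/- untreated and Ovol1 +/+ under IMQ, so treatment and control genotype cannot be told apart in it. No gene passed with limma (0% of genes; 1472 at an unadjusted p under 0.05, and 99 called by DESeq2). Cxcl3 had the largest difference among the members, 2.28 (SE 0.92, interval 0.14 to 4.42, unadjusted p = 0.0396, limma adjusted p = 0.481), against an untreated level of 2 reads in all. The intervals of the other 6 spanned 0. Ccl4 was at 1.04 (SE 0.88), Cxcl2 at 0.79 (SE 0.54, interval -0.47 to 2.06), Csf2 at 0.27 (SE 1.36) and Cxcl1 at 0.26 (SE 0.42, interval -0.73 to 1.245). Ccl3 was at -0.03 (SE 1.15) and Csf3 at -1.42 (SE 1.77). The sign was not stable for Csf2, Ccl3, Csf3 and Cxcl1, each of which changed it under at least 1 other setting.

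IMQ was set against untreated epidermis as CPM with an added 0.5, without a test, because the tables were scaled separately and the control genotype differed. In the labelled knockouts, which share the label, and in control mice, Cxcl1 was the member that stood highest over untreated on this scale. Its log2 difference was 4.69 in control mice and 5.04 in labelled knockouts, and 0.0821% and 0.109% of genes had a larger one. Mean CPM was 28.6-fold and 33.9-fold that of untreated epidermis. Cxcl2 was 3.74 and 4.61 higher (14.6-fold and 26.9-fold in mean CPM), and Csf2 3.49 and 4.69 higher (47.3-fold and 29.5-fold). The order of the members depends on the added 0.5, which lowers the difference of low genes more than that of high ones. In mean CPM the ratio of Csf2 was larger than that of Cxcl1 in control mice and smaller in labelled knockouts. On the log2 scale the median gene was at 0.02 and -0.01, and the 99th percentile at 2.32 and 2.75.

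Cxcl3 was 2.87 and 4.37 higher on that scale. In the labelled knockouts, where no untreated read was found, its mean CPM was at least 131-fold higher than a floor of 3 reads per library. In the controls the ratio of 148 rested on 2 untreated reads, with a 95% counting interval from 37.3 to 1133. Csf3 was 2.54 higher in control mice, 3.48 for females and 1.60 for males, and 1.14 higher in labelled knockouts. The control value was 1.52 without the female IMQ control. Ccl4 was 0.86 and 1.21 higher, from 2 and 1 untreated reads in all. Ccl3 was 0.29 and 0.50 higher, with -0.34 in the male labelled knockout pair. The mean CPM of Cxcl5 under IMQ was 2.39-fold and 4.32-fold the floor. In labelled knockouts this rested on the female library (20 reads), as the male library held 2 reads, under the floor. Ppbp lay at or under the floor in all groups. Cxcl1, Cxcl2 and Csf2 were the 3 members that passed the filter on low values in the untreated table too. Every IMQ library exceeded every untreated library in each of them, where 27.1% of all genes did so and 23.7% lay below in the same way. Cxcl3, Ccl4 and Csf3 were apart too and Ccl3 was not, but these 4 passed the filter through the IMQ table alone, which favours a rise.

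**Figure D3:**
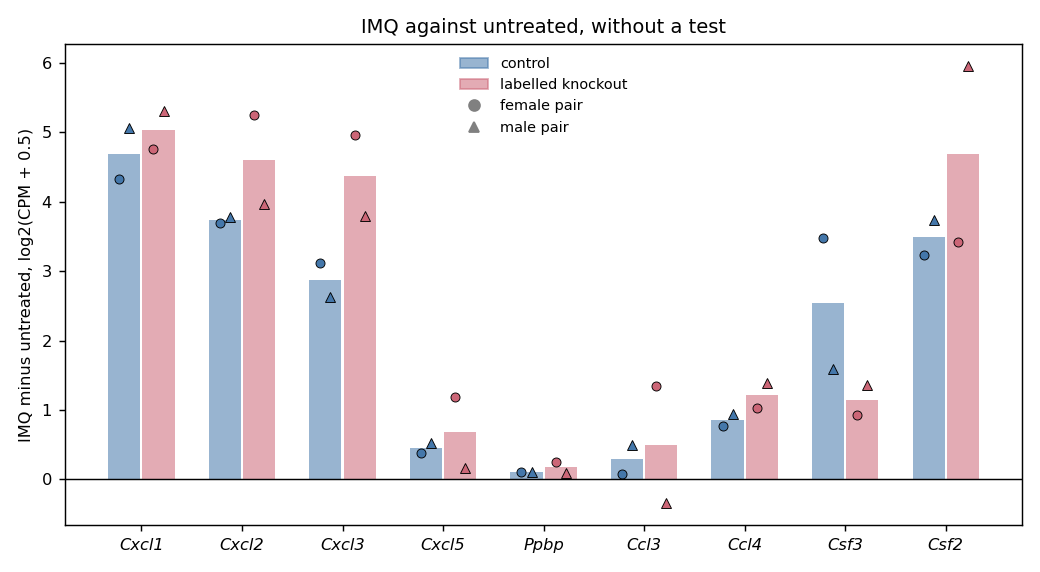
Bars give the IMQ minus untreated difference in log2(CPM + 0.5) (vertical axis) for 9 genes (horizontal axis), blue for controls and red for labelled knockouts, and points give the female and male pairs. Cxcl1, Cxcl2, Cxcl3 and Csf2 have the tallest bars, the pairs of Csf2 in labelled knockouts lie far apart (3.42 and 5.96), and Csf3 has the taller bar in control mice.

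Levels can be compared between genes only per length, here as mean CPM per kb of merged exons. In untreated controls Cxcl2 (2.21) and Cxcl1 (2.15) led and did not differ beyond their spread (1.62 to 2.81 and 1.72 to 2.57 over the libraries). Their order turned when the principal transcript's length was used instead, a setting added after the data were seen. In untreated labelled knockouts Cxcl1 (3.75) and Cxcl2 (3.57) were again inseparable, and Csf2 (1.505) came next through its female library alone (2.77 against 0.24). Under IMQ Cxcl1 led in control mice at 61.3, above Cxcl2 at 32.3, and the library ranges (56.7 to 66.0 and 25.2 to 39.3) did not overlap. In the labelled knockouts Cxcl1 was at 127 and Cxcl2 at 96.3, with overlapping ranges (116 to 138 and 67.5 to 125). Csf2 came next, at 8.71 in controls and 44.4 in labelled knockouts. Behind it came Csf3 (2.68, with 4.51 in the female and 0.839 in the male library), Cxcl3 (0.977) and Ccl4 (0.689) in control mice. With the principal transcript's length Cxcl3 (3.36) passed Csf3 there. Next were Cxcl3 (3.07), Ccl4 (1.05), Ccl3 (1.00) and Csf3 (0.675) in labelled knockouts. Of the members' summed level under IMQ, Csf2 made up 5.83% (female) and 10.5% (male) in control mice, and 11.7% and 22.0% in labelled knockouts. Csf3 made up 4.14% and 0.797%, and 0.260% and 0.229%, in the same order, so that its share too was high in the female control. These shares depend on the length used. Merged exons of Cxcl1 and Cxcl2 (1875 and 2068 bases) were longer than their principal transcripts (953 and 1109 bases). For Csf2 and Csf3 both lengths were the same. With the principal transcript, Cxcl1 and Cxcl2 were at 121 and 60.2 in IMQ controls and at 251 and 179 in IMQ labelled knockouts. Csf2 and Csf3 kept their levels, so their shares were smaller.

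**Figure D4:**
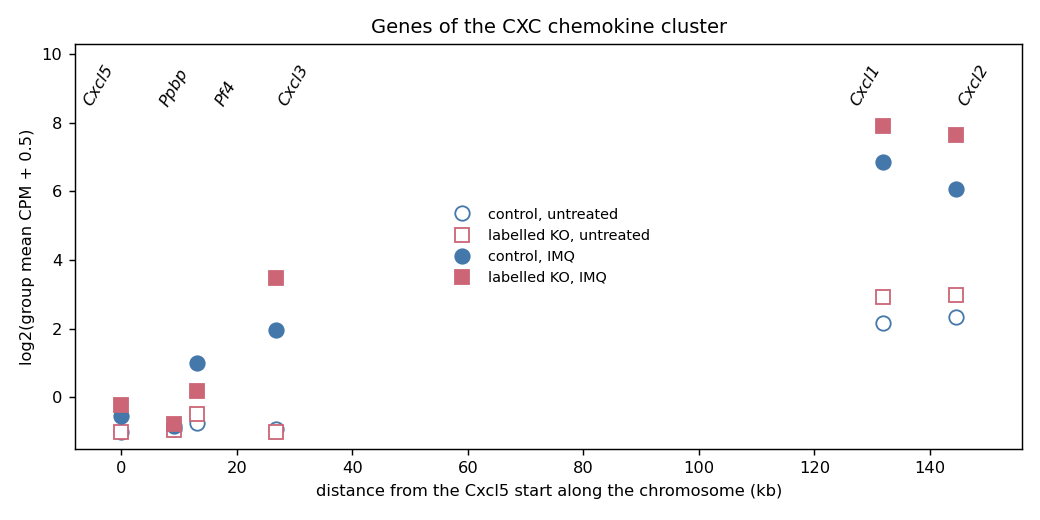
Points give log2 of the group mean CPM plus 0.5 (vertical axis) of the measured genes of the CXC cluster, by distance in kb from the start of Cxcl5 (horizontal axis). Open symbols are untreated and filled symbols IMQ groups, with circles for controls and squares for labelled knockouts. Cxcl1 and Cxcl2, the last 2 genes, are highest throughout, and Cxcl5 and Ppbp, the first 2, are lowest under IMQ.

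Not every gene of the cluster went the same way under IMQ, though none of those tested passed with limma. Pf4, between the silent and the active genes, was at 34.0 and 58.2 normalised counts in IMQ controls and at 3.98 and 35.2 in IMQ labelled knockouts. It thus stood lower rather than higher in both pairs (-1.76 on the log2 scale, SE 0.89, limma adjusted p = 0.286). Cxcl15, which the annotation places between Cxcl3 and Cxcl1, was not analysed here. By the pattern over all 8 libraries, the genes most like Cxcl1 were Mpp6, Prep, Dhx38, Tut1 and Letm1, with Pearson's r of 0.996 to 0.997 on log2(CPM + 0.5). Those most like Cxcl2 were Hmgxb3, Kif5b, Arcn1, Apba3 and Pdcd6, with r of 0.994 to 0.998. The libraries fall into 2 treatment clusters, and 1268 and 1144 genes had an r over 0.95 with Cxcl1 and Cxcl2, so these names describe few among many.

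The receptors of these ligands were a list of 11 genes, of which 9 were tested. None passed in either treatment with limma. At an unadjusted p under 0.05 there were 0 untreated, where 4.46% of all genes were, and 3 under IMQ, where 22.0% were. The list's median was 0.30 untreated and 0.42 under IMQ. Cxcr2, the main receptor of the CXC ligands, was at 48.4 and 44.0 normalised counts in untreated controls and at 23.8 and 22.7 in untreated labelled knockouts. Under IMQ it was at 582 and 1097 in control mice and at 3561 and 1243 in labelled knockouts. The labelled knockouts lay below the controls untreated and above them under IMQ, with a difference of effects of 2.36 (SE 0.69, limma adjusted p = 0.476). Cxcr1, its relative, was at 0 in all untreated libraries, at 2.75 and 4.57 in IMQ controls and at 44.7 and 11.4 in IMQ labelled knockouts (2.38 on the log2 scale, SE 0.82, limma adjusted p = 0.165). It passed the filter on low values only through the IMQ labelled knockouts, which favours a higher value in them. Ackr2, a scavenger of CC chemokines, was at 57.8 and 33.1 in IMQ controls and at 14.9 and 21.9 in IMQ labelled knockouts (-1.23 on the log2 scale, SE 0.39, limma adjusted p = 0.142). Csf3r, the receptor for the Csf3 product, stayed at 25.1 or less, whereas Csf2rb, the shared signalling chain for the Csf2 product, was at 1073 to 5144.

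**Figure D5:**
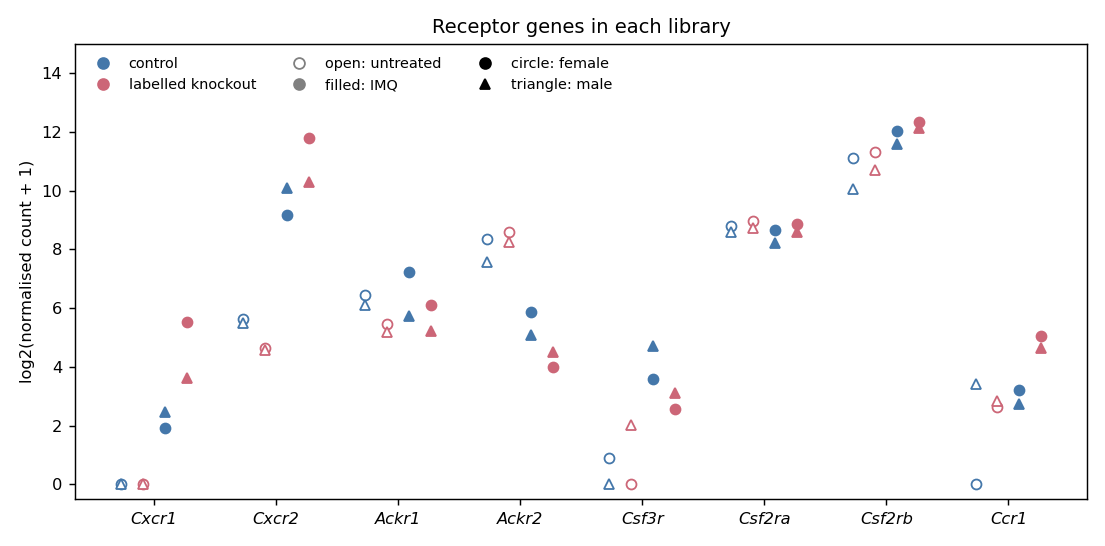
Points give log2 of the normalised count plus 1 (vertical axis) for 8 receptor genes (horizontal axis) in each library, blue for controls, red for labelled knockouts, open for untreated, filled for IMQ, circles for females and triangles for males. Cxcr2 is higher in all 4 IMQ libraries than in the untreated ones, Ackr2 is lower, and Csf2ra hardly differs between groups.

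Among 16 genes for cytokines and receptors that induce these ligands, 15 were tested and 1 passed under IMQ, where 0.438% of all genes did. Like all 64 calls under IMQ, it was lost with plain moderation or with each table fitted alone. Il1a, an epidermal alarm cytokine, was at 1102 and 1306 normalised counts in IMQ controls and at 4134 and 4617 in IMQ labelled knockouts, and rose by 1.86 on the log2 scale (SE 0.18, limma adjusted p = 0.0221). Untreated, it was at 394 to 552 in all libraries. Il17f, a T cell cytokine that acts on keratinocytes, was at 52.3 and 61.7 in IMQ controls and at 24.9 and 21.9 in IMQ labelled knockouts (log2 fold change -1.25, SE 0.47, adjusted p = 0.190). In untreated epidermis Il17f stood at 1.66 on the log2 scale (SE 0.47, adjusted p from limma 0.682). Its counts there were 4.32 and 3.22 in controls and 20.7 and 9.27 in labelled knockouts. Il17a stood at 2.33 untreated (SE 0.94), on counts of 5.18 and 0 against 20.7 and 6.18. Under IMQ Il17a was lower instead (-1.61, SE 0.94), at 27.5 and 36.5 against 13.9 and 6.66. Both genes had few untreated reads and passed the filter through the IMQ table alone. The receptor gene Tnfrsf1b had 0.50 untreated (SE 0.16). These 3 genes had an unadjusted p under 0.05 untreated, as 4.46% of all genes did. The list's median was 0.15 untreated and 0.01 under IMQ, close to that of all genes.

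Of 15 genes for signal transducers and transcription factors between those receptors and the ligands, all tested, 0 passed with limma. Under IMQ 3 had an unadjusted p under 0.05, a share near the 22.0% of all genes. Irak4 and Myd88, which relay interleukin-1 and Toll-like receptor signals, had log2 fold changes of 0.58 (SE 0.19) and 0.42 (SE 0.17), and Cebpd, a transcription factor, 0.42 (SE 0.15), with limma adjusted p of 0.153 to 0.199. Of 10 genes that act on AU-rich or related messages, 0 passed with limma and 1 had an unadjusted p under 0.05 under IMQ. Arid5a, whose product stabilises inflammatory messages, was at 2242 and 2355 in IMQ controls and at 4522 and 3486 in IMQ labelled knockouts (0.79 on the log2 scale, SE 0.17, limma adjusted p = 0.0818). Zfp36, which encodes tristetraprolin, a factor that removes messages with ATTTA words, was at 63900.0 to 83337 under IMQ, with a log2 fold change of -0.25 (SE 0.17). Among 5 other colony-stimulating factor genes, 3 were tested and 0 passed in either treatment. Csf1 had a log2 fold change of -0.44 (SE 0.30) under IMQ.

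Markers of other cell types differed between the libraries, and none of those described here passed the limma threshold. Of 18 neutrophil markers, 13 were measured, and their summed level under IMQ was 92.3 and 290 CPM in control mice and 605 and 479 CPM in labelled knockouts, against 26.6 to 41.8 CPM untreated. Under IMQ that sum came mostly from S100a8 and S100a9, which keratinocytes also make, and Cxcr2. S100a9 alone was at 27.7 and 165 CPM in IMQ controls and at 300 and 284 CPM in IMQ labelled knockouts. The markers Retnlg, Csf3r, Camp, Mmp8 and Fpr1 together summed to 0.78 and 0.96 CPM in IMQ controls. In IMQ labelled knockouts they summed to 0.68 and 0.47 CPM. These genes were picked after the values were seen, and their sum does not stand for the list. Trem1, also low, was at 0.51 and 0.37 CPM in IMQ controls and at 1.48 and 2.37 CPM in IMQ labelled knockouts. Fpr2 was at 1.17 and 0.67 CPM in IMQ controls and at 0.10 and 0.22 CPM in IMQ labelled knockouts. Of all genes, 22.0% had an unadjusted p under 0.05 under IMQ, in either direction. Of the 9 neutrophil markers tested, 3 had one on the higher side (S100a8 2.43, Trem1 2.03 and Cxcr2 1.40 on the log2 scale) and 2 on the lower side (Fpr2 -2.35 and Mmp9 -1.19). Trem1 and Fpr2 passed the filter on low values through the IMQ table alone, Trem1 with high labelled knockouts and Fpr2 with high controls. The 4 measured but not tested, Retnlg, Camp, Mmp8 and Fpr1, were at 10.9 normalised counts or less in every library. Of 11 macrophage markers 10 had a negative log2 fold change under IMQ, where 48.7% of all genes had a positive one. Of these, 7 had an unadjusted p under 0.05, where 22.0% of all genes did, and 0 passed. The list's sums were 244 and 167 CPM in control mice and 124 and 159 CPM in labelled knockouts. The 6 endothelial markers summed to 18.2 CPM in the female IMQ control and 1.58 to 2.78 CPM in the other 3 IMQ libraries. The female IMQ control is also the library with the high Csf3. Dermal fibroblast markers summed to 1655 and 2585 CPM in the 2 male IMQ libraries and 63.2 and 241 CPM in the 2 female ones. The part of these cells in the chemokine values was not tested.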

How the data were processed

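The members and lists were chosen with earlier results of these data known. Reads were processed by the authors with Trimmomatic 0.35, STAR 2.5.2a, R 3.6.1, DESeq2 1.24.0 and mm10, per the submitters' processing notes. For the read counter and annotation, nothing was given in the sources used here. What the authors deposited is a signal, counts divided by 1 factor per library, in 2 separately scaled tables (untreated, IMQ). All values were whole multiples of 1 step per library within 0.001 read, and division by it gave the recovered reads, 28.6 to 43.1 M per library. This sets the precision of low genes, and intervals and floors (3 reads) cover counting error only.

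Genes needed a mean of 10 in either table (14614 left). limma 3.58.1 (R 4.3.3, trend and robust) was fitted to log2(value + 1) with 4 group means over 8 libraries. Each contrast lies within a table, so the separate scaling cancels. CPM used TMM factors of edgeR 4.0.16 over 8 libraries. Alternatives were other pseudocounts, filters, scalings and moderation, each table alone, sex as a replicate block, edgeR, DESeq2 1.42.0 and each library left out. The pipeline was tested on simulated counts. From each list other than the cell type markers, up to 4 genes with the largest changes among those with an unadjusted p under 0.05 were named; predicted genes were not named, and other named genes were chosen after their values were seen. Listed symbols not found were matched through RefSeq synonyms (Il36a, Il36b and Il36g are Il1f6, Il1f8 and Il1f9 there). Positions and 3′ UTRs are from GENCODE vM21 (GRCm38), on the APPRIS principal transcript, chosen after values on the longest transcript were seen. Promoters are from RefSeq. For 1 listed receptor gene, values are not reported here.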

Additional observations from a re-analysis of the deposited data

How the results depend on the processing

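With 2 libraries per group, only large changes could pass, and low genes (Cxcl3 untreated, Ccl3, Ccl4, Csf3) carry counting error that more depth would lower. The count of members called stayed at 0 in every setting of both treatments and of the difference, except under IMQ with DESeq2, where it was 3. For all genes, the untreated count of 0 became 5 with a pseudocount of 5, 8 with each table alone, 8 with the replicate block, 6 with edgeR and the block and 89 with DESeq2, and was 0 to 2 with 1 library left out. The IMQ count of 64 became 0 with plain moderation, 0 with each table alone, 358 with the replicate block, 292 with edgeR and the block and 1242 with DESeq2, and was 0 to 299 with 1 library left out (0 without any 1 of the 4 untreated libraries, 5 without the female control, 3 without the female and 299 without the male labelled knockout). For the difference, DESeq2 called 99 genes. The causes were not tested. The replicate number follows sex, and female minus male values correlated between groups by 0.145 to 0.463 across genes. With the replicate block the IMQ adjusted p was 0.0705 for Cxcl1 and 0.0537 for Cxcl2, and no member's call changed.

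Some signs turned. Csf3 untreated was 0.24 with a pseudocount of 5, 0.16 with TMM, 0.97 with edgeR, 0.85 with edgeR and the replicate block and 1.02 with DESeq2, and -2.03 to 1.82 with 1 library left out. Ccl4 untreated was -0.98 to 0.051 with 1 library left out. For the difference of effects, Ccl3 was 0.089 with a pseudocount of 5, 0.21 with TMM, 0.24 with quantile scaling, 0.042 with edgeR, 0.030 with edgeR and the block and 0.053 with DESeq2, and -1.06 to 1.00 with 1 library left out. Csf2 was -0.70 with edgeR, -0.70 with edgeR and the block and -0.67 with DESeq2, and -1.41 to 1.96 with 1 library left out. Cxcl1 was -0.16 to 0.68 and Csf3 -3.35 to 0.51 with 1 library left out. Ccl3, IMQ minus untreated in the labelled knockouts, was -0.082 without the female IMQ library. The log2 ratio of Cxcl1 to Cxcl2 per kb in untreated controls was -0.045 with merged exons and 0.032 with the principal transcript. Under IMQ, Cxcl1, Cxcl2, Cxcl3 and Csf2 stayed positive in all settings, at 0.92 to 1.19, 1.09 to 1.998, 0.94 to 2.18 and 1.97 to 2.78.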
